A study of Homo sapiens with 10 samples.

Results

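The 7 genes of the intermediate filament cytoskeleton described here were followed through their introns and exons: the epithelial keratins KRT7, KRT8, KRT18, KRT19, KRT80 and KRT81, and vimentin (VIM). The genes were chosen by name, with earlier results of these data known. An intron or exon was given to one of them when its GRCh37 splice sites matched that gene in GENCODE release 44 mapped to GRCh37. This gave 58 introns of 126404 and 139 exons of 270665 over all libraries, and 6 genes of 10873 with a listed intron. No intron or exon of KRT19 was found among the listed ones, and KRT19 is not analysed here.

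The cells were A549, a human lung adenocarcinoma line, and each condition had 2 libraries of poly(A)+ RNA. Cells were given α-amanitin, the death cap toxin that slows RNA polymerase II, at 1 or 2 μg/mL for 24 h. Other cells were given DRB, a nucleoside analogue that blocks the kinases needed for elongation by RNA polymerase II, at 10 or 25 μg/mL, and the controls were given DMSO. For DRB and DMSO the sources used here give no duration. All 4 comparisons with DMSO share the same 2 DMSO libraries. The libraries carry replicate numbers, and nothing in the labels says that they came from separate cultures, so a p-value here measures only how far these libraries spread, which may be technical.

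Keratins are the intermediate filaments of epithelial cells and form only as pairs, with a type II chain joined to a type I chain. KRT8 (type II) and KRT18 (type I) are the primary pair of simple epithelia such as that of the lung, and KRT7 and KRT19 join them in many ductal and glandular epithelia. Vimentin, a type III protein, forms filaments by itself and is typical of mesenchymal cells and of many carcinoma lines in culture.

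The type II genes and KRT18 lie in one keratin cluster on chromosome 12, and VIM lies alone on chromosome 10. In GRCh37, KRT7 spans chr12:52626304-52645970 on the plus strand, KRT80 chr12:52562780-52585798 on the minus strand and KRT81 chr12:52679697-52685318 on the minus strand. KRT18 spans chr12:53342655-53346690 on the plus strand, and the annotated extent of KRT8, chr12:53290971-53343738 on the minus strand, reaches into it. VIM spans chr10:17270240-17279592 on the plus strand. All 8 introns of the canonical transcript of KRT7 were listed, all 7 of KRT8, all 6 of KRT18 and all 8 of KRT80. For VIM 8 of 9 were listed, the first one being missing, and for KRT81 4 of 8.

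The libraries held between 2899344 and 6498515 split reads, which are reads that cross a splice junction. Both libraries at 25 μg/mL DRB stood apart from the other 8. They listed 45513 and 60620 introns, against 74739 to 90955 in the others, and had 1.06 and 2.06 unspliced reads (reads that cross a splice site without splicing) per split read, against 0.361 to 0.732. Levels are in CPM, the split reads of a gene or intron per 1000000 split reads of the library, after scaling by trimmed means (TMM). An intron is listed only above a minimum, so a missing intron can hold up to 10 reads and is not an absent one. Of the markers that check the cells, 1 of 9 lung epithelial genes was listed (MUC1, at 12.2 to 43.99 CPM), and EPCAM and CDH1 were listed in no library. Of the others, 1 of 7 fibroblast genes (COL1A1), 2 of 6 blood cell genes and 0 of 5 endothelial genes were listed. COL1A1 differed widely between the DMSO libraries, at 12.4 and 160.4 CPM, and had 0 (unlisted) and 31.7 at 25 μg/mL DRB. The blood cell genes, CD79A and LYZ, were listed at 25 μg/mL DRB alone, at a summed 37.6 and 18.7 CPM. Their part in the results was not tested. In bulk libraries, fewer cells of a type and less RNA per cell cannot be told apart, and no spike-in is named in the sources used here.

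The level of a gene is the sum over its introns. The choice of scale matters at 25 μg/mL DRB: the median log2 change of all genes against DMSO was -1.02 with TMM, -1.48 when scaled by total split reads and -0.022 when only introns listed in all 6 libraries of the fit were used. Changes at that dose are therefore also given relative to the median of all genes.

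**Figure D1:**
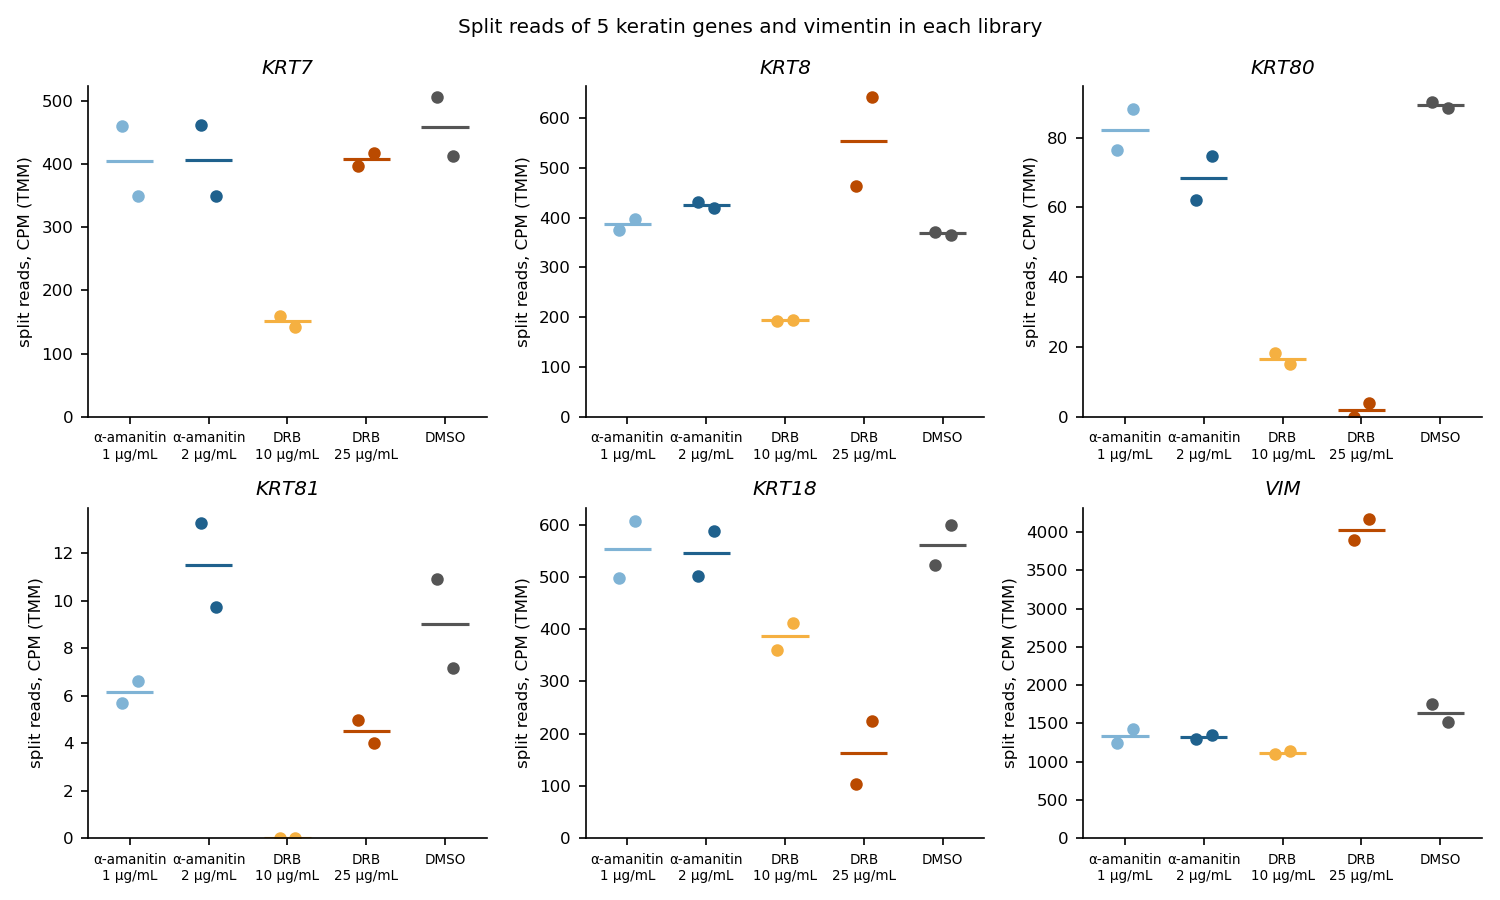
Levels in CPM (split reads, TMM) of KRT7, KRT8, KRT80, KRT81, KRT18 and VIM, with a point for each library and a line at the mean of the 2 libraries of a condition. VIM reached 3898 and 4167 at 25 μg/mL DRB, above every other library, while KRT18 was at its lowest there, with 103 and 225.

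The 6 genes covered a wide range of levels. Because genes differ in their number of introns, levels are compared as CPM per canonical intron. The introns of a gene also differ in level, so the order below holds for these means alone. In DMSO, VIM had 219 and 189.9, KRT18 86.8 and 99.7, KRT7 63.0 and 51.3, KRT8 51.0 and 50.7, KRT80 10.9 and 10.4, and KRT81 2.73 and 1.79 per intron. KRT7 and KRT8 were neighbours that did not differ beyond the spread of KRT7, and all the other neighbours were separated. The order was another one at 25 μg/mL DRB: VIM had 487 and 521, KRT8 64.8 and 89.7, KRT7 49.0 and 51.5, KRT18 17.2 and 36.9, KRT81 1.24 and 1.01, and KRT80 was unlisted in one library and at 0.503 in the other. KRT18 stood next to VIM in DMSO, and below KRT8 and KRT7 at this dose.

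With α-amanitin none of the 6 genes passed the test. At 1 μg/mL this was 0 of 6 genes by limma voom, against 0% of 9553 genes tested, with 1 of 6 at an unadjusted p under 0.05 and 0 by the limma trend method. At 2 μg/mL it was again 0 of 6, against 6.05% of all genes (2.4% higher and 3.65% lower), with 3 of 6 at an unadjusted p under 0.05 and 0 by limma trend. The lowest adjusted p was 0.48 with 1 μg/mL and 0.13 with 2 μg/mL, and both belonged to VIM.

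VIM, the filament protein of mesenchymal cells, had 1244 and 1431 CPM with 1 μg/mL and 1294 and 1352 with 2 μg/mL, against 1753 and 1520 in DMSO. All 4 treated libraries were below both DMSO libraries, by a log2 change of -0.28 ± 0.10 (SE) with 1 μg/mL and -0.29 ± 0.10 with 2 μg/mL (adjusted p = 0.48 and 0.13). KRT18, the type I partner of KRT8, had 498 and 608 with 1 μg/mL and 502 and 587 with 2 μg/mL, against 523 and 599 in DMSO. Its groups overlapped, and its log2 change was -0.017 ± 0.14 and -0.036 ± 0.14 (adjusted p = 0.98 and 0.88), with a sign that turned under other scalings.

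KRT8 had 376 and 397 with 1 μg/mL and 431 and 419 with 2 μg/mL, against 372 and 365 in DMSO. Its libraries lay just above DMSO at both doses, with log2 changes of 0.071 ± 0.087 and 0.21 ± 0.086 (adjusted p = 0.79 and 0.16). KRT80, a type II keratin of stratifying epithelia, had 76.3 and 88.3 with 1 μg/mL and 62.2 and 74.6 with 2 μg/mL, against 90.3 and 88.4 in DMSO (log2 -0.11 ± 0.14 and -0.38 ± 0.14, adjusted p = 0.81 and 0.15). All its α-amanitin libraries were below DMSO, replicate 2 of 1 μg/mL by very little.

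KRT7 had 460 and 349 with 1 μg/mL and 462 and 349 with 2 μg/mL, against 505 and 413 in DMSO, so that its libraries within each α-amanitin dose lay further apart than the group means. KRT81, a hair keratin, was near the listing minimum and had 5.70 and 6.62 with 1 μg/mL and 13.3 and 9.75 with 2 μg/mL, against 10.9 and 7.17 in DMSO. Between the doses of α-amanitin (2 over 1 μg/mL), 0 of 6 genes passed, against 0% of all genes, with 0 of 6 at an unadjusted p under 0.05 and 0 by limma trend.

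At 10 μg/mL DRB most of the keratins and vimentin were lower than in DMSO. Of the 6 genes, KRT7, KRT8, KRT80 and VIM fell, 0 rose and KRT18 did not pass. KRT81 passed as lower too, but it was unlisted in both DRB libraries, and the listing minimum alone can make that call. These counts stand against 14.8% of 9399 genes called in either direction, 8.33% called higher and 6.48% called lower. Among the genes listed in all 4 libraries compared, KRT80 fell most, by 5.35-fold, though some of its introns were unlisted with DRB. KRT7, with all its canonical introns listed, was 3.04-fold lower. All these calls rest on the 4 libraries together: leaving out any of the 2 DMSO or 2 DRB libraries ended each one, and 0 of all genes then passed.

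KRT7 had 159 and 142 CPM at 10 μg/mL DRB, against 505 and 413 in DMSO. The groups were far apart, with a log2 change of -1.60 ± 0.14 (adjusted p = 0.010, and 0.058 to 0.11 with a library left out). KRT8 had 193 and 195 at 10 μg/mL, against 372 and 365 in DMSO, a 1.90-fold lower level (log2 -0.93 ± 0.17, adjusted p = 0.024, and 0.13 to 0.17 with a library left out). Both type II keratins thus had every DRB library below every DMSO library.

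VIM had 1107 and 1135 at 10 μg/mL, against 1753 and 1520 in DMSO (log2 -0.54 ± 0.096, adjusted p = 0.021, and 0.060 to 0.17 with a library left out). KRT18 had 361 and 411 at 10 μg/mL, against 523 and 599 in DMSO. Its log2 change of -0.54 ± 0.25 was as large as that of VIM, but its SE was larger and it did not pass (adjusted p = 0.20, with a range of 0.026 to 0.47 over the other settings), and it passed with the 2 groups fitted alone.

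KRT80 had 18.2 and 15.2 at 10 μg/mL, against 90.3 and 88.4 in DMSO (log2 -2.43 ± 0.51, adjusted p = 0.033, and 0.21 to 0.35 with a library left out). It did not pass with limma trend (adjusted p = 0.26) or with the replicate number as a block (0.072), within a range of 0.0048 to 0.26 over the settings tried. All 8 canonical introns of KRT80 were listed in the α-amanitin and DMSO libraries, but 5 and 4 of them at 10 μg/mL DRB. With each missing intron set to the 10 reads that it could hold, the highest DRB library was still at least 3.29-fold lower than the lowest DMSO library.

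KRT81 was unlisted in both libraries at 10 μg/mL, against 10.9 and 7.17 in DMSO. A missing intron can hold as many reads as KRT81 had in DMSO, so no fold is given. Its call (adjusted p = 0.010, with a range of 0.0076 to 0.085 over the settings) was lost with the 2 groups fitted alone.

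At 25 μg/mL DRB the genes parted. VIM and KRT8 rose, KRT18 and KRT80 fell, and KRT7 and KRT81 did not pass, which makes 4 of 6 genes against 61% of the 9399 genes tested. Of all genes 20% were called higher and 41% lower.

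VIM had 3898 and 4167 CPM at 25 μg/mL DRB, against 1753 and 1520 in DMSO. It was 2.46-fold higher, with a log2 change of 1.31 ± 0.089 (adjusted p = 0.00057). Relative to the median of all genes this is 2.33 with TMM and 1.11 on introns listed in all libraries. The change was 0.84 when scaled by total split reads and 1.09 on introns listed in all libraries, and it passed in every setting tried and without any single library (1.23 to 1.41, highest adjusted p = 0.0027).

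KRT18 had 103 and 225 at 25 μg/mL, against 523 and 599 in DMSO. Both libraries were below every other library of the series, though they lay well apart from each other. The log2 change was -1.78 ± 0.31 (adjusted p = 0.0050), which is -0.76 relative to the median of all genes and at the 41.1th percentile of them. It was -2.23 when scaled by total split reads and -2.08 on introns listed in all libraries, where the median of all genes was -0.022. It passed without any single library, at -1.32 without replicate 1 and -2.44 without replicate 2 of 25 μg/mL DRB.

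KRT8, the partner of KRT18, had 464 and 642 at 25 μg/mL, against 372 and 365 in DMSO. Both libraries lay above DMSO, with a log2 change of 0.59 ± 0.16 (adjusted p = 0.024). Relative to the median of all genes this is 1.61 with TMM and 0.37 on introns listed in all libraries. The rise did not pass when scaled by total split reads (0.13, adjusted p = 0.36) or on introns listed in all libraries (0.35, adjusted p = 0.062), within a range of 0.017 to 0.36 over the settings tried. It also failed without replicate 1 or 2 of DMSO (adjusted p = 0.094 and 0.10) and without replicate 2 of 25 μg/mL DRB (0.33, adjusted p = 0.13).

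KRT7 had 397 and 418 at 25 μg/mL, against 505 and 413 in DMSO. The groups overlapped (log2 -0.16 ± 0.13, adjusted p = 0.35), and the difference passed as a fall when scaled by total split reads (-0.63, adjusted p = 0.0064) and on introns listed in all libraries (-0.38, adjusted p = 0.033), within a range of 0.0064 to 0.83. Relative to the median of all genes it was 0.86 with TMM and -0.36 on the introns listed in all libraries.

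KRT80 was unlisted in replicate 1 at 25 μg/mL and had 4.02 in replicate 2, against 90.3 and 88.4 in DMSO. With each missing intron set to 10 reads, the highest library at this dose was at least 2.302-fold lower than the lowest DMSO library. The fall (adjusted p = 0.0038) was lost without replicate 2 of 25 μg/mL DRB (adjusted p = 0.13).

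The reads that support the internal exon of KRT80 at chr12:52566822-52566947, 126 nt long, do not rest on that minimum, since the exon was listed in all 10 libraries. It had 8.29 and 9.24 inclusion reads in CPM with 10 μg/mL DRB and 5.88 and 5.75 with 25 μg/mL, against 32.7 and 32.7 in DMSO. The mean was 3.73-fold lower with 10 μg/mL and 5.62-fold lower with 25 μg/mL, with no overlap, and it was 25.6 to 35.5 with α-amanitin. No test was run on these reads.

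KRT81 had 4.98 and 4.02 at 25 μg/mL, against 10.9 and 7.17 in DMSO (adjusted p = 0.13, and 0.048 when scaled by total split reads, within a range of 0.048 to 0.37). Its exon at chr12:52681380-52681505 had 8.14 and 6.04 inclusion reads in CPM at 25 μg/mL, against 7.35 and 4.64 in DMSO, which overlap. That exon was unlisted in both libraries at 10 μg/mL. KRT81 has near-identical neighbours among the hair keratins. Of these, KRT86 had 1 listed intron with 27 split reads in all, and KRT83 and KRT85 had 0. The sources used here do not say how reads that map to several copies were treated, so KRT81, and KRT8 and KRT18 with their processed pseudogenes, are uncertain to that extent.

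**Figure D2:**
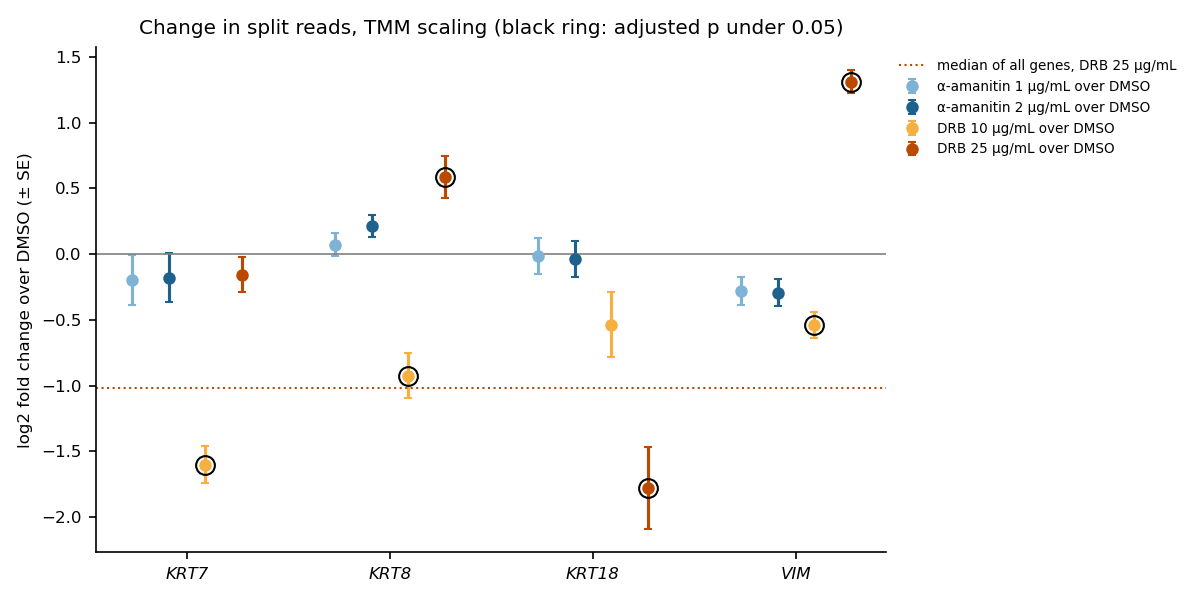
Log2 fold change over DMSO with its SE for KRT7, KRT8, KRT18 and VIM (x axis) in the 4 treatments, with a black ring where the adjusted p is under 0.05 and a dotted line at the median of all genes at 25 μg/mL DRB (-1.02). VIM was at 1.31 and KRT18 at -1.78 at 25 μg/mL, while the points of α-amanitin lie between -0.29 and 0.21.

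Between the doses of DRB (25 over 10 μg/mL), all 6 genes passed, against 62.8% of all genes (19.3% higher and 43.6% lower), but the calls of KRT80 (lower) and KRT81 (higher) can come from the listing minimum alone, since the missing introns of the lower group can hold more reads than the higher group had. Of the other 4, 3 were higher and 1 was lower. VIM was higher by a log2 change of 1.85 ± 0.092 (adjusted p = 4e-04), KRT8 by 1.51 ± 0.17 (0.0011) and KRT7 by 1.44 ± 0.15 (0.00083), and KRT81 passed against an unlisted group, a call lost without replicate 1 (adjusted p = 0.16) or 2 (0.21) of 25 μg/mL DRB. The changes of VIM, KRT8 and KRT7 are 2.68 to 3.08 above the median of all genes, which was -1.23 with TMM. On introns listed in all libraries that median was -0.10, and they were 1.70 (VIM), 1.42 (KRT8) and 1.29 (KRT7) above it. With TMM, KRT18 was lower by -1.24 ± 0.32 (adjusted p = 0.018), which is -0.011 relative to the median of -1.23. It lost the call without replicate 1 or replicate 2 of 10 μg/mL DRB. On introns listed in all libraries KRT18 was at -1.57 by limma voom (adjusted p = 1.3e-05), which is -1.47 relative to the median there. KRT80 lost its call with the replicate block (adjusted p = 0.056) and without any single library (0.085 to 0.25). KRT7, KRT8 and VIM were thus lower with 10 than with 25 μg/mL, and KRT18 was lower with 25 than with 10 μg/mL.

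Since keratins are built from pairs, the balance between the RNAs of the chains was compared within each library, where scaling between libraries plays no part. Per intron, KRT8 over KRT18 was 0.614 and 0.537 with 1 μg/mL α-amanitin, 0.698 and 0.583 with 2 μg/mL, 0.396 and 0.367 with 10 μg/mL DRB and 3.77 and 2.43 with 25 μg/mL DRB, against 0.587 and 0.508 in DMSO. KRT18 led in 8 libraries, and KRT8 led in both at 25 μg/mL DRB, where the ratio was 5.66-fold higher than in DMSO. The canonical introns of KRT8 themselves ranged from 8.2 (intron 7) to 83.9 CPM (intron 5) in DMSO replicate 2. Which gene led therefore depends on the introns averaged, and only the change of the ratio between conditions is read here. At 10 μg/mL DRB the ratio lay below DMSO by 0.52 on the log2 scale, and at 25 μg/mL it lay above by 2.47.

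KRT7 over KRT18 was 0.331 and 0.259 with 10 μg/mL DRB and 2.85 and 1.40 with 25 μg/mL, against 0.726 and 0.514 in DMSO. VIM over KRT18 was 2.32 and 2.08 with 10 μg/mL DRB and 28.3 and 14.1 with 25 μg/mL, against 2.52 and 1.91 in DMSO. Both ratios were above every other library with 25 μg/mL, with means 3.43-fold and 9.58-fold above the DMSO means, and with 10 μg/mL VIM over KRT18 overlapped DMSO. VIM over KRT8 was 5.86 and 5.67 with 10 μg/mL and 7.52 and 5.81 with 25 μg/mL, against 4.30 and 3.75 in DMSO, while α-amanitin gave 2.78 to 3.30. With 2 libraries against 2, an exact two-sided permutation test cannot go below p = 0.333, which is the value that each of the ratios at 25 μg/mL DRB reached.

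**Figure D3:**
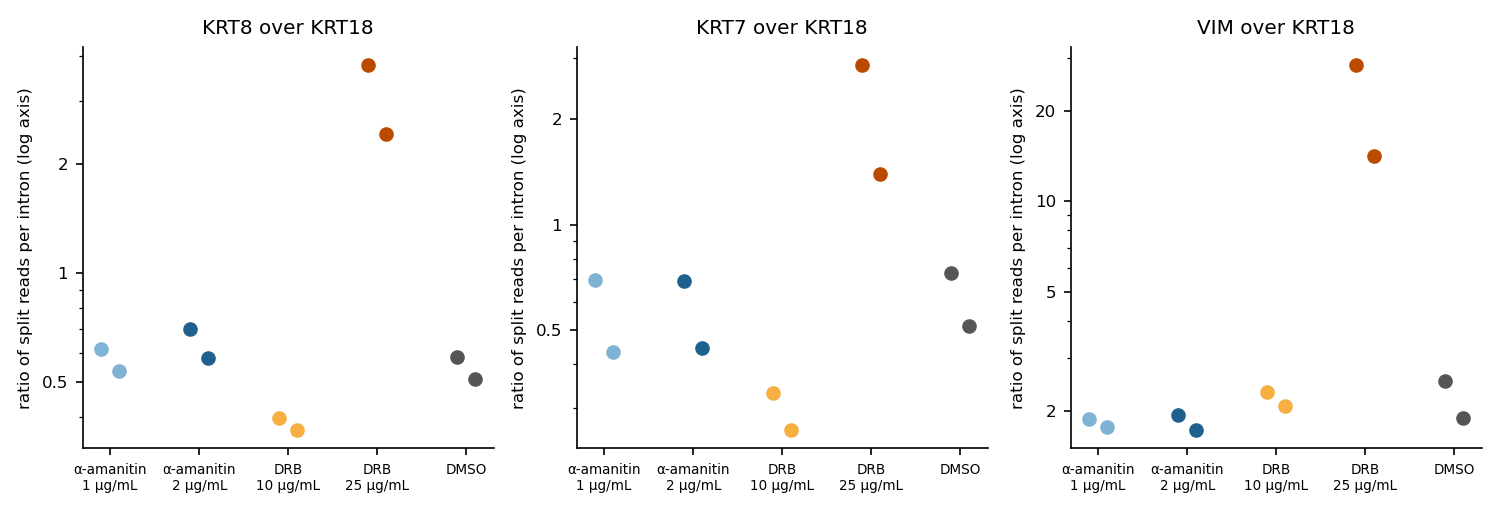
Ratios of split reads per canonical intron (log axis) of KRT8, KRT7 and VIM over KRT18, with a point for each library. At 25 μg/mL DRB KRT8 over KRT18 was 3.77 and 2.43, and it was below 1 in the other 8 libraries.

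The changes of KRT7 and KRT18 at 10 and 25 μg/mL DRB, and those of KRT8 and VIM, were next read intron by intron. The introns of a gene are read from the same transcripts, so their counts are a description and not replicates. The share of all introns that lay apart from DMSO was not computed. All 8 canonical introns of KRT7 had both libraries at 10 μg/mL DRB below both DMSO libraries, at 0.286 to 0.384 of the DMSO mean. The same held for all 7 introns of KRT8 (0.431 to 0.692), all 6 of KRT18 (0.616 to 0.709) and all 8 listed introns of VIM (0.649 to 0.795). With 25 μg/mL DRB all 8 introns of VIM were above both DMSO libraries (2.33 to 3.003 of the DMSO mean), all 7 of KRT8 were above (1.36 to 2.06) and all 6 of KRT18 were below (0.265 to 0.333).

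The ends of KRT18 moved alike. Its first intron had 57 and 172 split reads at 25 μg/mL DRB, against 416 and 603 in DMSO, and its last had 44 and 151, against 402 and 596. The introns of KRT7 were mixed at this dose, with 1 above and 3 below DMSO (0.710 to 1.10 of the DMSO mean). The use of single introns within a gene was tested for 47 introns of the 6 genes in each comparison. None passed with 1 μg/mL α-amanitin (0.00127% of 78610 introns called), 2 μg/mL α-amanitin (0.0407%) or 10 μg/mL DRB (0.628% of 74955). At 25 μg/mL DRB (2.07%) 1 passed, intron 5 of KRT81, whose fellow introns were unlisted there, and it was lost without either library of 25 μg/mL DRB (adjusted p = 1.0).

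**Figure D4:**
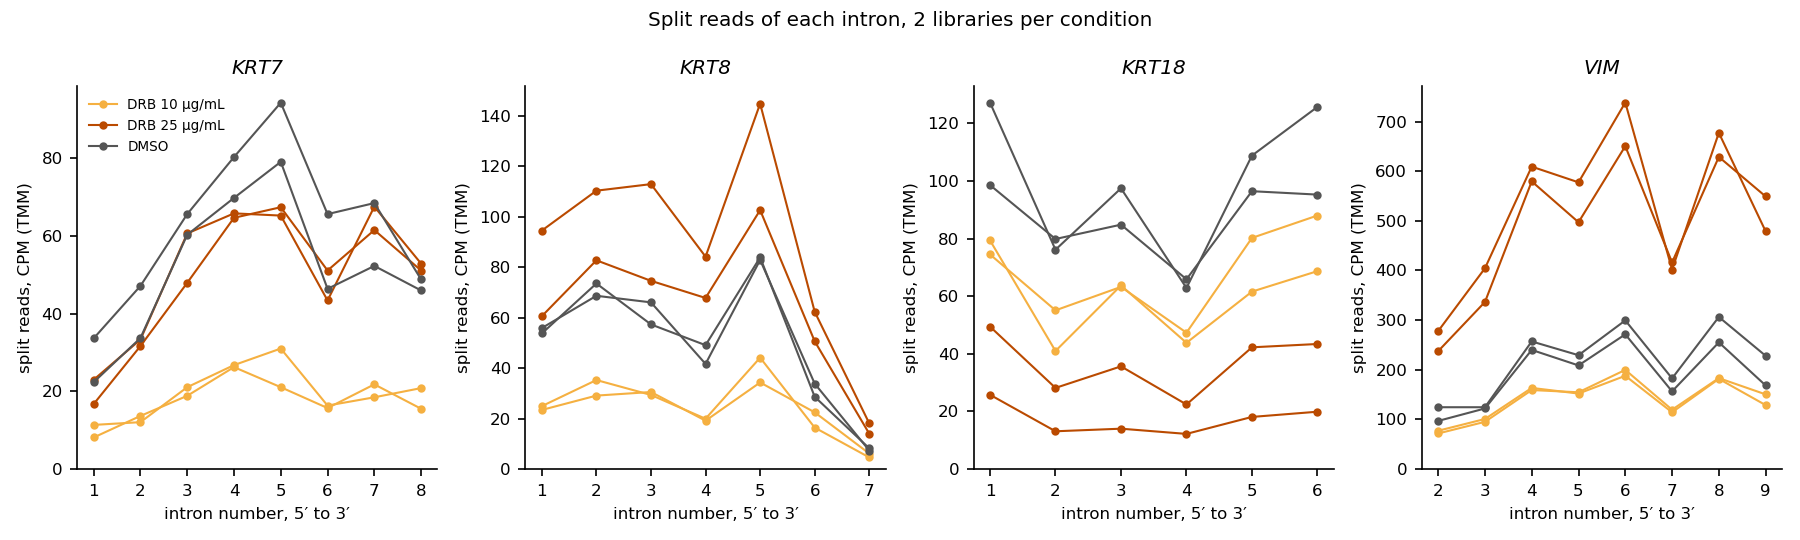
Levels in CPM (split reads, TMM) of each canonical intron, numbered from the 5′ end, in KRT7, KRT8, KRT18 and VIM, with a line for each library of 10 μg/mL DRB, 25 μg/mL DRB and DMSO. Every intron of VIM is highest and every intron of KRT18 lowest with 25 μg/mL DRB, and every intron of KRT7 is lowest with 10 μg/mL.

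Upstream of KRT8 the annotation holds alternative first exons on the minus strand, within and beside the KRT18 locus. From a splice donor there, transcripts joined either an exon 627 bp away, at chr12:53342435-53342612 and 178 nt long, or a site 44428 bp away, at the body of KRT8. The donor and these 2 acceptors, which held most of its reads, are shown in GRCh37 on the minus strand, with the intron's GT or AG in capitals, because the reads divided between them in other shares in different libraries.
shared donor, chr12:53343226-53343245: gtccagGTaagaggccaggc
near acceptor, chr12:53342608-53342632: attatgctcttctcccccAGgtgga
distal acceptor, chr12:53298807-53298831: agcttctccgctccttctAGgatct

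The intron from the donor to the near acceptor, chr12:53342613-53343239, had 55 and 59 split reads with 1 μg/mL α-amanitin and 52 and 65 with 2 μg/mL. It had 20 and 21 with 10 μg/mL DRB and 15 and 9 with 25 μg/mL, against 32 and 32 in DMSO. The intron to the distal acceptor, chr12:53298812-53343239, had 4 and 7 with 1 μg/mL α-amanitin, 20 and 16 with 2 μg/mL, 31 and 28 with 10 μg/mL DRB and 4 and 12 with 25 μg/mL, against 3 and unlisted in DMSO. The near intron thus led in all libraries but those at 10 μg/mL DRB and replicate 2 of 25 μg/mL DRB, where the distal one held more reads. A pair of other introns from the same donor had 9 and 17 reads in all libraries together.

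The inclusion level Ψ of the near exon weighs reads that include it against reads that skip it, as inc/(inc + 2 exc). Of the exon's junctions only the one from the shared donor was listed, so its inclusion reads come from one side, which lowers Ψ. No junction from the exon to the body of KRT8 was listed, so whether it is an internal exon cannot be told. It was 0.873 and 0.808 with 1 μg/mL α-amanitin, 0.5 and 0.670 with 2 μg/mL, 0.189 and 0.212 with 10 μg/mL DRB and 0.652 and 0.192 with 25 μg/mL, against 0.842 and 1.00 in DMSO. As a plain share of reads, inclusion was 31.7% and 35.0% with 10 μg/mL DRB and 78.9% and 32.1% with 25 μg/mL, against 91.4% and 100% in DMSO. Libraries with 2 μg/mL α-amanitin and at both doses of DRB were all below DMSO, and those with 1 μg/mL overlapped it. In log2 odds the difference was -0.89 with 1 μg/mL α-amanitin (adjusted p = 0.82), -2.74 ± 1.16 with 2 μg/mL (0.13), -5.20 ± 1.44 with 10 μg/mL DRB (0.10) and -4.14 ± 1.54 with 25 μg/mL (0.044).

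Only the last passed, and not firmly: its adjusted p was 0.17 with the replicate block, ranged from 0.048 to 0.17 over the other settings and from 0.088 to 0.27 without a library. At 10 μg/mL DRB, where the libraries are furthest from DMSO, it was 0.044 with the 2 groups fitted alone, in a range of 0.044 to 0.39. The distal intron's share of the split reads of KRT8 differed at 10 μg/mL DRB by a log2 change of 5.35 ± 1.41 and did not pass (adjusted p = 0.065, with a range of 0.022 to 0.95 over the settings and 0.039 to 0.86 without a library). All these counts are small beside the body of KRT8, whose intron 5 alone had 145 and 239 split reads at 10 μg/mL DRB, against 350 and 398 in DMSO.

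Across the members, 10 exons of 2 genes (KRT7 and KRT8) could be tested for inclusion with α-amanitin and 7 with DRB. With α-amanitin 0 passed with 1 μg/mL (0% of 10341 exons) and 0 with 2 μg/mL (0.0677%, with 0.029% higher and 0.0387% lower), and 0 passed with 10 μg/mL DRB (0.0276% of 10875). With 25 μg/mL DRB 4 passed, against 51.8% of all exons (7.78% higher and 44% lower). Of these, 3 are overlapping models of the KRT8 exon that share the same reads, and the other lies in KRT7.

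The KRT7 exon, chr12:52638162-52638395 and 234 nt long, lies inside intron 6. Of its junctions only the downstream one, from an alternative donor within intron 6 to the usual acceptor, was listed, so its inclusion reads come from one side. Whether it is an internal exon cannot be told from these reads. The usual donor, the alternative donor and the acceptor that they share are shown in GRCh37 on the plus strand, with GT or AG of the intron in capitals.
usual donor, chr12:52636916-52636935: aaccagGTgggacaagtcct
alternative donor, chr12:52638390-52638409: tggccgGTaagaagggagag
shared acceptor, chr12:52639176-52639200: agctgcactgctgcccacAGcgtgc

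The exon had 3 and 4 inclusion reads with 10 μg/mL DRB and 11 and 20 with 25 μg/mL, against 6 and 13 in DMSO. Reads that skip it numbered 69 and 85 with 10 μg/mL and 113 and 151 with 25 μg/mL, against 277 and 220 in DMSO. Ψ was 0.0213 and 0.0230 with 10 μg/mL and 0.0464 and 0.0621 with 25 μg/mL, against 0.0107 and 0.0287 in DMSO, and 0.00498 to 0.0163 with α-amanitin. The libraries at 25 μg/mL were above all others. As a plain share of reads, inclusion was 4.17% and 4.49% with 10 μg/mL DRB and 8.87% and 11.7% with 25 μg/mL, against 2.12% and 5.58% in DMSO, so the usual donor held most reads in every library. Tested for intron use at 25 μg/mL DRB, the junction from the alternative donor did not pass (diffSplice, log2 difference 1.615 ± 0.77, adjusted p = 0.47). The log2 odds differed by 1.60 ± 0.49 (adjusted p = 0.044), and the call was lost with the replicate block (0.11), in a range of 0.041 to 0.11 over the settings, and without any single library (0.064 to 0.30).

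**Figure D5:**
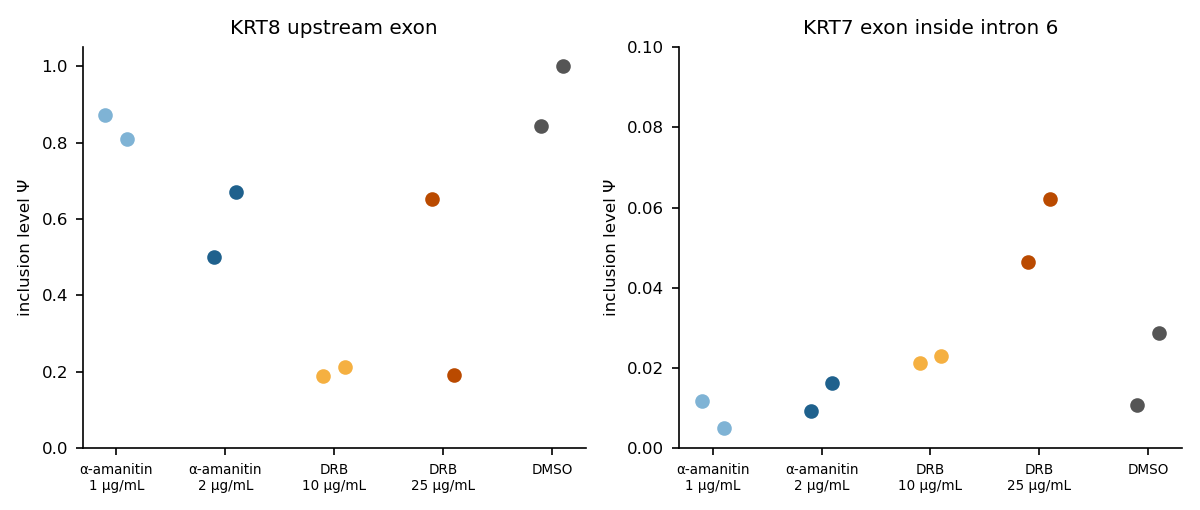
Inclusion level Ψ of the KRT8 upstream exon and of the KRT7 exon inside intron 6, with a point for each library. The KRT8 exon was at 0.189 and 0.212 with 10 μg/mL DRB, against 0.842 and 1.00 in DMSO, and the KRT7 exon was highest with 25 μg/mL DRB, with 0.0464 and 0.0621.

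Unspliced reads were few over the canonical introns of KRT7, KRT8, KRT18 and VIM. KRT80 had more, with 57.1 and 65.8 per 1000 split reads in DMSO. A KRT18 intron outside the canonical transcript, chr12:53342723-53342956, had more unspliced than split reads in DMSO, with 90 and 106 against 10 and 5. Per 1000 split reads of its canonical introns, VIM had 16.5 and 6.52 unspliced reads with 10 μg/mL DRB and 0.813 and 2.00 with 25 μg/mL, against 8.79 and 8.88 in DMSO. KRT7 had 16.5 and 9.17 with 10 μg/mL and 4.61 and 6.98 with 25 μg/mL, against 25.4 and 13.9 in DMSO. As counted, both genes had less unspliced signal at 25 μg/mL DRB than in DMSO, while the whole libraries had more per split read. A 0 can hide up to 2 reads at a site. For KRT7, with 4 and 10 unspliced reads over 867 and 1433 split reads at this dose, the difference is therefore uncertain.

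KRT18 had 29.8 and 0 with 10 μg/mL and 0 and 3.90 with 25 μg/mL, against 12.3 and 5.99 in DMSO. KRT8 had 0 over its canonical introns in all 10 libraries, where a 0 can hide up to 2 reads at a site. With 2 μg/mL α-amanitin, KRT7 had 4.002 and 4.217 and VIM 3.99 and 3.01 per 1000, as counted below DMSO in both libraries. With 1 μg/mL KRT7 (22.5 and 17.3) overlapped DMSO.

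Of 21 member introns tested with α-amanitin, 0 passed with 1 μg/mL (0% of 9776 introns; 0 of 21 at an unadjusted p under 0.05) and 0 with 2 μg/mL (0.0102%; 3 of 21). Of 16 tested with DRB, 0 passed with 10 μg/mL (0% of 7262; 1 of 16) and 1 with 25 μg/mL (10.5%, with 7.23% higher and 3.29% lower). The estimate was lower in 13 of 16 at 25 μg/mL, and the share of all introns with a lower estimate is not given here. Among the 13 are introns of KRT18 with 0 unspliced reads and few split reads, where a 0 can hide up to 2 reads at a site. The one that passed was intron 7 of VIM, chr10:17277389-17277844, with 0 and 4 unspliced reads over both sites at 25 μg/mL, against 17 and 21 in DMSO (log2 odds -3.71 ± 1.14, adjusted p = 0.046, and 0.18 to 0.22 without a library). The sources used here do not say whether unspliced reads were counted by strand, so those of KRT8 and KRT18 where they overlap cannot be told apart.

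The genes whose levels ran most like those of each member were found over the 10 libraries, among 5580 genes with a mean of at least 100 split reads. The 10 libraries come from 5 conditions and are not independent of each other, and r is given as a description. For VIM and KRT18 both libraries at 25 μg/mL DRB lay outside the range of all the others. How far r rests on that condition was not tested. VIM was most like ACTB (β-actin; Pearson r = 0.996), and KRT18 most like SUCLA2 and PHKA1 (both 0.993). KRT8 was most like APOBEC3B and SNRPN (both 0.98), KRT7 most like PHGDH and SRGN (both 0.97), KRT80 most like NIPSNAP2 (0.996) and FKBP5 (0.992), and KRT81 most like EPB41L2 (0.971) and TRA2A (0.964). Among the members themselves r was 0.98 between KRT80 and KRT18, 0.85 between KRT8 and KRT7, -0.25 between the partners KRT8 and KRT18, and -0.79 between VIM and KRT18. KRT80 and KRT81 entered as 0 in libraries where they were unlisted, so every r given for them rests in part on the listing minimum.

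Other genes of the filament network were read from lists. At 25 μg/mL DRB the counts of every list stand against 61% of all genes called, 20% higher and 41% lower. At 10 μg/mL DRB these shares were 14.8%, 8.33% and 6.48%, and at 2 μg/mL α-amanitin 6.05%, 2.4% and 3.65%. No call at 10 μg/mL DRB in these lists held without each single library of that comparison, since 0 genes passed then. Of 40 other keratins, 2 were tested with α-amanitin and 1 with DRB, and 0 passed in any comparison with DMSO. Of 15 other intermediate filament genes, 6 were tested with DRB. At 25 μg/mL 2 rose and 2 fell (median log2 0.32, against -1.02 over all genes), or 0 and 3 when scaled by total split reads, and at 10 μg/mL 2 rose and 0 fell. Leaving out a library left 1 to 2 calls at 25 μg/mL. LMNB1, a lamin of the nuclear envelope, was unlisted in both libraries at 25 μg/mL DRB, against 162 and 149 CPM in DMSO. Its missing introns can each hold up to 10 reads, and its call was lost without replicate 1 or 2 of 25 μg/mL DRB. LMNA, the A-type lamin, had 598 and 800 at 25 μg/mL DRB, against 438 and 422 in DMSO (log2 0.71, adjusted p = 0.013, and 0.10 when scaled by total split reads), and did not pass without replicate 2 of 25 μg/mL DRB (0.065) or without replicate 1 (0.057) or 2 (0.067) of DMSO. With α-amanitin at 2 μg/mL LMNA rose (0.78, adjusted p = 0.025) and LMNB1 fell (-0.73, adjusted p = 0.025), the only calls among the 5 tested, and without DMSO replicate 1 or 2 or without replicate 1 of 2 μg/mL α-amanitin 0 passed.

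Plakins and desmosome proteins anchor keratins at the cell membrane. Of 21, 14 were tested with DRB: 0 passed with 10 μg/mL (2 rose and 1 fell when scaled by total split reads), while with 25 μg/mL 4 rose and 5 fell (median log2 -1.29), or 2 and 7 when scaled by total split reads, and 5 to 6 passed with a library left out. MACF1, a plakin that links actin and microtubules, had 2295 and 1718 at 25 μg/mL, against 644 and 454 in DMSO (log2 1.86, adjusted p = 0.0016). EVPL (envoplakin) and DSC2 (desmocollin 2) were unlisted in both libraries at 25 μg/mL. Their missing introns can each hold up to 10 reads, and whether the listing minimum alone made their calls was not tested. EVPL had 51.4 and 33.1 in DMSO, and its call was lost without replicate 1 (adjusted p = 0.25) or 2 (0.35) of 25 μg/mL DRB. DSC2 had 14.7 and 9.28 in DMSO, and its call was lost without any single library (0.055 to 0.37).

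Of 24 epithelial adhesion and polarity genes, 8 were tested with DRB, and at 25 μg/mL 3 rose and 5 fell (median log2 -0.71), or 2 and 5 when scaled by total split reads, and 3 to 7 passed with a library left out. At 10 μg/mL 0 rose and 1 fell, or 1 and 0 with that scaling. CLDN1, a claudin of tight junctions, had 366 and 415 at 25 μg/mL DRB, against 103 and 110 in DMSO (log2 1.88, adjusted p = 0.00057). OCLN, the tight junction protein occludin, was unlisted in both, against 28.0 and 29.5 in DMSO, and so was PATJ, a polarity scaffold, against 64.7 and 41.8. Each missing intron can hold up to 10 reads, and whether the listing minimum alone made these calls was not tested. Both calls were lost without replicate 1 (adjusted p = 0.10 for OCLN and 0.22 for PATJ) or replicate 2 (0.18 and 0.32) of 25 μg/mL DRB. SPINT2, an inhibitor of membrane serine proteases, fell with 10 μg/mL DRB (-0.68, adjusted p = 0.045, and 0.072 when scaled by total split reads) and rose with 25 μg/mL (1.42, adjusted p = 0.00082).

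Of 20 genes that go with vimentin in mesenchymal cells, 11 were tested with DRB. With 25 μg/mL 9 rose and 2 fell (median log2 1.47, against -1.02 over all genes), or 7 and 2 when scaled by total split reads, and at 10 μg/mL 0 rose and 2 fell (median -0.47), or 0 and 0 when scaled by total split reads. S100A6, a calcium-binding protein, had 3463 and 3691 at 25 μg/mL, against 732 and 816 in DMSO (log2 2.21, adjusted p = 0.00057). ITGA5, the α5 integrin chain that binds fibronectin, fell to 48.4 and 49.5, against 255 and 212 in DMSO (log2 -2.23, adjusted p = 0.00079). ZEB1, a repressor of epithelial genes, was unlisted in replicate 1 of 25 μg/mL DRB and had 4.02 in replicate 2, against 27.2 and 21.1 in DMSO. Its call was lost without any single library.

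Of 20 transcription factors known to act on keratin or vimentin genes, 11 were tested with DRB, and at 25 μg/mL 7 rose and 2 fell (median log2 0.97), or 5 and 3 when scaled by total split reads. FOSL1, an AP-1 subunit, had 933 and 855 at 25 μg/mL, against 18.01 and 34.6 in DMSO (log2 5.11, adjusted p = 0.00057). ETS1 had 333 and 363, against 37.2 and 57.6 (log2 2.89, adjusted p = 0.00057). At 10 μg/mL 2 rose and 1 fell. RELA, an NF-κB subunit, had 156 and 176 at 10 μg/mL, against 75.3 and 74.9 in DMSO (log2 1.15, adjusted p = 0.012), and SMAD3, which carries TGF-β signals, had 139 and 117, against 82.0 and 77.4 (0.67, adjusted p = 0.038).

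Actin, tubulin and their partners make the other cytoskeletal systems, and all 20 were tested. At 10 μg/mL DRB 0 rose and 8 fell (median log2 -0.57), or 1 and 9 when scaled by total split reads. TUBA1A and TUBA1B, α-tubulins, fell by 1.99 and 1.67 on the log2 scale (adjusted p = 0.012 and 0.019). With 25 μg/mL 8 rose and 6 fell, or 7 and 10 with that scaling. ACTN4, an α-actinin, had 6121 and 5811 at 25 μg/mL, against 1352 and 1141 in DMSO (log2 2.26, adjusted p = 0.00057), and CFL1 (cofilin) had 3099 and 3457, against 765 and 845 (2.03, adjusted p = 0.00057). TUBA4A and TUBB4B had log2 changes of -3.08 and -2.50 (adjusted p = 0.0012 and 0.0033), and TUBA4A did not pass without replicate 2 of 25 μg/mL DRB (0.089). At 2 μg/mL α-amanitin 3 rose and 1 fell (0 and 0 without either DMSO library or replicate 1 of that dose), with TUBA4A at 1.27 (adjusted p = 0.023) and ACTG1, the γ-actin gene, at -0.66 (adjusted p = 0.017). In every list 0 genes passed at 1 μg/mL α-amanitin.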

How the data were processed

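Poly(A)+ RNA of A549 cells was sequenced in 5 conditions with 2 libraries each. Alignment by the authors used STAR and GRCh37 (2.7.3a in the submitters' notes, another version in the study's methods), and counting was done with the IPSA pipeline, which kept introns with GT/AG ends. The deposited counts are held in a text field: split reads and unspliced reads over the 5′ and 3′ site of each intron, and reads that include (inc), skip (exc) or run unspliced into each exon. The deposited inclusion level Ψ is a fraction, and the deposited score column was not used. The lowest listed split count is 3 and the lowest unspliced, inc or exc count above 0 is 3.

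For each gene, split reads of the introns assigned to it alone were summed, scaled with an own script for TMM and tested by limma 3.58.1 (voom, R 4.3.3). Genes needed 15 reads over a fit, with 10 or more in 2 libraries. The 6 libraries of a fit were DMSO and the 2 doses of a drug. Unspliced against split reads and inc against exc were tested with quasi-binomial models moderated by limma, with a Ψ denominator of at least 10, and intron use with limma's diffSplice. P-values were adjusted by Benjamini-Hochberg over all features tested, with a threshold of 0.05. The scripts were tested on simulated data. The members and the gene lists were chosen with earlier results of these data known. Named were all members, their canonical introns and other introns with at least 50 split reads, the 2 highest rises and 2 largest falls of each list among genes past the threshold with a mean of at least 50 split reads, and the 2 genes most like each member. A few of the genes so chosen are not reported here. Alternatives were scaling by total split reads, only introns listed in all libraries of a fit, only canonical introns of the members (chosen after seeing the data), limma trend, other filters, 2-group fits, the replicate number as a block and leaving out each library. Protein sequences were not used here.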

Additional observations from a re-analysis of the deposited data

How the results depend on the processing

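Of the member values past the threshold, 127 kept their side over the alternatives and 62 did not, and none of them changed sign. Of those not past it, 227 kept their side, 8 passed and 17 changed sign, all 17 in α-amanitin comparisons in which 0 members passed. KRT18 had log2 changes of 0.056 with 1 μg/mL and 0.0036 with 2 μg/mL when scaled by total split reads, and 0.033 and 0.023 on introns listed in all libraries, and KRT7 between the doses was -0.016 when scaled by total split reads. With a library left out, KRT18 ranged from -0.17 to 0.11 with 1 μg/mL and from -0.15 to 0.077 with 2 μg/mL, and KRT7 from -0.39 to 0.015 and from -0.38 to 0.025. Between the doses VIM ranged from -0.11 to 0.085, KRT18 from -0.15 to 0.12 and KRT7 from -0.20 to 0.22. For these and the following results the cause was not tested, unless fewer libraries or features are named.

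On introns listed in all libraries, which tests fewer genes, 1244 genes passed at 2 μg/mL α-amanitin (578 with all introns), 2887 at 25 μg/mL DRB (5731), 7 between the α-amanitin doses (0) and 3005 between the DRB doses (5906). Higher against lower calls at 25 μg/mL DRB were 1880 and 3851 with TMM, 1341 and 4815 by total split reads, and 1426 and 1461 on introns listed in all libraries. By total split reads they were 288 and 273 at 2 μg/mL α-amanitin (229 and 349 with TMM) and 1137 and 563 at 10 μg/mL DRB (783 and 609).

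Deviations of same-numbered libraries correlated at 0.19 to 0.49 over 6910 genes among α-amanitin, 10 μg/mL DRB and DMSO, and at -0.0089 to 0.061 between 25 μg/mL DRB and the other groups. With 2 numbers per group, and labels that tie them to no shared culture or day, the pairing remains a hint from the data. With the replicate number as a block, 11 genes passed at 1 μg/mL α-amanitin and 2023 at 2 μg/mL, among them 0 of the 6 members at either dose (lowest adjusted p = 0.23 and 0.059). With the block, 0 introns passed for unspliced reads with 2 μg/mL α-amanitin or with 25 μg/mL DRB, 0 exons for inclusion with 2 μg/mL α-amanitin and at either dose of DRB, and 0 introns for use at 1 μg/mL α-amanitin.

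With the 2 groups fitted alone, which leaves fewer libraries, 0 genes passed at 2 μg/mL α-amanitin. For unspliced reads 0 introns passed at 2 μg/mL α-amanitin and 0 at 25 μg/mL DRB, for inclusion 0 exons at 2 μg/mL α-amanitin and 150 at 10 μg/mL DRB, and for intron use 0 with 1 μg/mL and 16 with 2 μg/mL α-amanitin, and 76 with 10 μg/mL DRB.

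For unspliced reads at 2 μg/mL α-amanitin, 0 introns passed with a minimum of 1 read, 0 on log2 odds and 2 with the 5′ site alone, and at 25 μg/mL DRB 462 passed with a minimum of 1 read and 319 with the 5′ site alone. For inclusion, log2 odds gave 414 exons at 2 μg/mL α-amanitin and 964 at 10 μg/mL DRB, where a denominator of at least 30 gave 187. For intron use, a minimum of 50 reads gave 11 introns at 2 μg/mL α-amanitin, 92 with 10 μg/mL DRB and 483 with 25 μg/mL.

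With a library left out, genes passed in ranges of 0 to 325 at 2 μg/mL α-amanitin, 0 to 0 at 10 μg/mL DRB, 2431 to 4499 at 25 μg/mL DRB and 2531 to 4587 between the DRB doses. Introns passed for unspliced reads in 0 to 0 at 2 μg/mL α-amanitin and at 25 μg/mL DRB. Exons passed for inclusion in 0 to 0 at 2 μg/mL α-amanitin and at 10 μg/mL DRB, and in 0 to 1208 at 25 μg/mL DRB. Introns passed for use in 0 to 1 at 1 μg/mL α-amanitin, 6 to 16 at 2 μg/mL, 14 to 838 with 10 μg/mL DRB and 214 to 1637 with 25 μg/mL.

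KRT80 and KRT81 lie near the listing minimum with DRB, and the unspliced and skipping counts of the members are small, so differences there were at the limit of this depth.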
